A study of Mus musculus with 12 samples.

Results

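The genes described here are 36 interferon-induced genes out of 34797 genes with a name on a mouse expression array. They were chosen by name, with earlier results of these data known. They were measured in 12 livers or liver pools, with 1 array for each of 12 groups. Of the 36, 34 could be tested, as could 21201 genes in all. A gene was tested when its brightest probe, the one used throughout, stood well above background on at least 2 arrays. Oas1g did so on 0 arrays and Oas3 on 1, the control siRNA array of day 2, where it was at least 1.49-fold higher than with G0s2 siRNA. Mx1 and Ifit2 did so on 6 arrays each, and the other 32 genes on all 12.

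The animals were male ICR mice, an outbred strain, bought at 5 weeks of age and adapted for 1 week. The labels call the mice without siRNA wild type. DEN is diethylnitrosamine, which hepatocytes turn into a DNA-alkylating carcinogen. The mice drank it at 80 mg/L, about 400 µg/day. ATRA is all-trans-retinoic acid, a vitamin A derivative that activates nuclear receptors. It came in ethanol with dimethyl sulfoxide, mixed into the water at 30 mg/L, about 150 µg/day. The vehicle group received water. The 6 treatments were vehicle, DEN, ATRA, both together (ATRA+DEN), a scrambled control siRNA, and siRNA against G0s2, an inhibitor of triglyceride breakdown, each at day 2 and at day 7. The siRNA (1.6 nmol) went into a vein with a lipid carrier on the day before DEN, but it is not stated whether the mice of the siRNA arrays also drank DEN. No label says whether an array holds 1 animal or a pool.

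Interferons are secreted proteins, and those of type I are released by cells that sense foreign nucleic acids. Type I interferons signal through the kinases Jak1 and Tyk2 to a complex that contains Stat2 and Irf9 and binds the interferon-stimulated response element (ISRE) in front of antiviral genes. Interferon gamma, mainly from T and NK cells, acts at gamma-activated sites (GAS) and induces GTPases that act on compartments holding intracellular pathogens. Both responses run in hepatocytes and in the immune cells of the liver. The 36 genes fall into 23 antiviral effectors of the type I response (21 tested), 3 cytosolic RNA sensors, 4 transcription factors and 6 GTPases typical of the gamma response.

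The promoters below are shown because they carry the element through which these genes are known to be switched on. RefSeq promoter sequences (build GRCm38.p6) matched 25 of the 36 genes. The ISRE was searched as GAAA, any 2 bases, GAAA, on both strands, between 250 bases before and 50 bases after the start. It was found for 16 of the 25 genes (64%), against 3.99% of all 27025 genes with a promoter entry (3.44% of 32851 promoters of that length). A stricter form (TTTC, any 2 bases, TTTC, any base, C, or its complement) was found for 7 of the 25, against 1.12% of all genes. The GAS, searched as TTC, any 3 bases, GAA, which reads the same on both strands, was found for 7 of 25 (28%), against 9.55% of all genes. In Bst2 an ISRE and a GAS match overlapped. All 4 GTPases with a promoter entry (Gbp2, Gbp3, Igtp and Irgm1) held an ISRE, and only Igtp also held a GAS. Of 15 antiviral effectors with an entry, 9 held an ISRE and 5 a GAS, so the GAS was not particular to the GTPases. No ISRE was found for Ifi35, Ifi44, Ifit2, Irf1, Irf7, Irf9, Oasl1, Oasl2 and Xaf1. A match describes letters in this window and not a bound site. For Oas1a, Ifit3 and Gbp3 the start used did not match the gene start in the RefSeq table. The 250 bases before the start follow, 5' to 3' on the gene's strand, with ISRE matches in capitals.
Ifit1: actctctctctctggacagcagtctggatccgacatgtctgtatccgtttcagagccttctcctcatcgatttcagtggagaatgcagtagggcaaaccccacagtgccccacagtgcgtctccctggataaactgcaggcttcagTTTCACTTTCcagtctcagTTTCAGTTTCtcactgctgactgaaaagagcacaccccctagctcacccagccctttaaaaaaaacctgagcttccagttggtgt
Oas1a: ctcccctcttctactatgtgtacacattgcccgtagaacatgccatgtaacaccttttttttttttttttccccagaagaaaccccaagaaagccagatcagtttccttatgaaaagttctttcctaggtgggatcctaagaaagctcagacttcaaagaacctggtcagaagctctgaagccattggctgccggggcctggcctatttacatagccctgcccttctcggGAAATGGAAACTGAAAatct
Isg15: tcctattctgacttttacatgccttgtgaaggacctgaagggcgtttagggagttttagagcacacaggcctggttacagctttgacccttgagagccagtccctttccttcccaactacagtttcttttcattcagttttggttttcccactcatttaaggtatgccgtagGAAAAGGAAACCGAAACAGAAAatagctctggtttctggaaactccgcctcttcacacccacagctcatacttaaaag
Rsad2: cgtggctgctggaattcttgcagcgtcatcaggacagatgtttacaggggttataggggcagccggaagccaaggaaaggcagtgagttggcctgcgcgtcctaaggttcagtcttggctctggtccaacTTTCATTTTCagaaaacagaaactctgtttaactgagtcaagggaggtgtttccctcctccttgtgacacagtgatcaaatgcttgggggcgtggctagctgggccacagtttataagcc
Ifit3: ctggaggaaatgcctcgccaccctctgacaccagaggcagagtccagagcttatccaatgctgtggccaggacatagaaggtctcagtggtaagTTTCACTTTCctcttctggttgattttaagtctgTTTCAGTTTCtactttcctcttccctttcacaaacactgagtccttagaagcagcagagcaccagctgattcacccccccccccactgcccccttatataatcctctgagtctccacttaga
Gbp2: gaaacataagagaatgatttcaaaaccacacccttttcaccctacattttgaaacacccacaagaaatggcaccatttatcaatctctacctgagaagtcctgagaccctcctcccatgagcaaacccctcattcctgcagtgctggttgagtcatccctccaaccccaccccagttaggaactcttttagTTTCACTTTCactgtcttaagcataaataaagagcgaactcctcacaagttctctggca
Gbp3: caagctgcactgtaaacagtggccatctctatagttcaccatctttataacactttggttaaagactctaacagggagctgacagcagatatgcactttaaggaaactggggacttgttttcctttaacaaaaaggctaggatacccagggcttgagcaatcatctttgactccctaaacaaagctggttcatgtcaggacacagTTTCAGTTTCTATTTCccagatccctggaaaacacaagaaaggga
Ifit1 (chr19:34640639-34640888, plus strand), Ifit3 (chr19:34583279-34583528, plus strand) and Oas1a (chr5:120907526-120907775, minus strand) each hold 2 matches. Those of Oas1a overlap. Isg15 (chr4:156200819-156201068, minus strand) holds 3 that run into each other. Rsad2 (chr12:26456453-26456702, minus strand) and Gbp2 (chr3:142620413-142620662, plus strand) hold 1 each, and Gbp3 (chr3:142559794-142560043, plus strand) holds 2 that overlap.

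Levels are log2 intensities of the gene's brightest probe minus the array's 75th percentile, so a level of 0 equals that percentile. A difference of 1 is 2-fold. Probes well above background made up 41.0% to 50.7% of an array, no spot was saturated, and the 12 arrays lie on 4 slides. For day 2, slide 1 carries the 4 arrays without siRNA and slide 2 both siRNA arrays. For day 7, slide 3 carries vehicle with DEN, and slide 4 carries the 4 remaining arrays. At day 7 a second label contradicts the titles of the DEN, ATRA+DEN and ATRA arrays. Groups were taken from the titles. Cdkn1a, which p53 induces after DNA damage, stood at 6.65 and 6.42 in the arrays titled DEN and ATRA+DEN of day 7 and at 2.63 in the one titled ATRA. Cyp26a1, which breaks down retinoic acid, stood at 1.17, 4.14 and 6.90 in those arrays. G0s2 itself, the siRNA target, stood lower with its siRNA than with control siRNA, by a difference in level of -1.84 at day 2 and -1.18 at day 7. All 8 hepatocyte markers were tested and their summed level was 4862 to 8012 times the array's 75th percentile. Because each group is 1 array, SEs and p-values rest only on how far differences between pairs of arrays spread. For DEN and G0s2 siRNA that spread is taken over the DEN pairs and the siRNA pairs together. The fit also draws each gene's spread toward a value common to all genes.

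**Figure D1:**
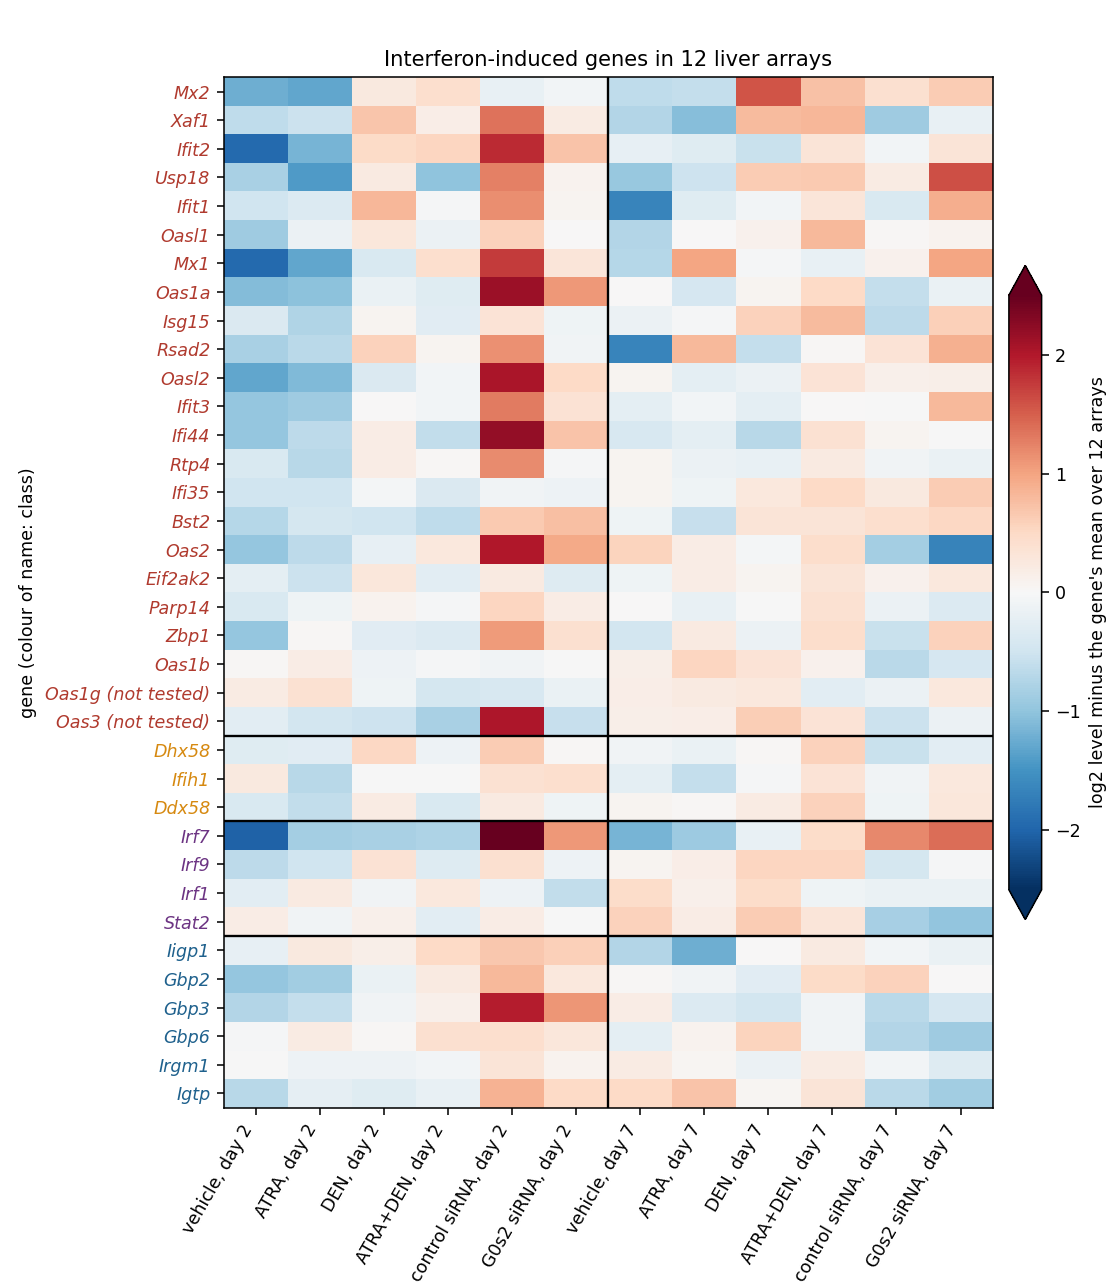
Levels of the 36 genes (rows, grouped and coloured by class) in the 12 arrays (columns), as log2 level minus the gene's own mean over 12 arrays. The control siRNA array of day 2 is the highest of 12 for 20 of the 34 genes tested and the vehicle array of day 2 the lowest for 15.

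With DEN, 29 of the 34 genes tested were higher on average over 4 pairs of arrays that differed in DEN, by a median log2 difference of 0.43 (SD of the 4 pair medians 0.25). Over all 21201 genes the median was -0.02 and 45.7% were higher. Of the antiviral effectors 20 of 21 were higher (median 0.58), of the RNA sensors 3 of 3 (0.39), of the transcription factors 2 of 4 (0.25) and of the GTPases 4 of 6 (0.23). The antiviral median exceeded the GTPase median by 0.36 (SD over 4 pairs 0.15). The excess was 0.19 with normexp, another background correction, and 0.20 with the mean of all probes of a gene. Normexp was run with an added offset, which shrinks log2 differences of dim probes. By limma with Benjamini-Hochberg adjustment over all genes, 0 of the 34 passed 0.05, as did 0% of all genes tested. The lowest adjusted p of any gene was 0.131, that of Mx2. At an unadjusted p under 0.05, 10 of the 34 were higher, where 5.35% of all genes were, and 0 were lower, where 6.89% of all genes were. In all 4 pairs 14 of the 34 were higher, where 9.09% of all genes were, and 0 were lower, where 12.5% were. The levels of the 4 arrays with DEN and the 4 without did not overlap for 4 of the 34 genes, Mx2, Xaf1, Ifit1 and Irf7, all higher with DEN, where 1.34% of all genes did so. Groups by the second day-7 label gave a median of 0.37 with 29 of 34 higher, but single genes moved: Mx2 to 0.60 (SE 0.66), Xaf1 to 0.44 (SE 0.62), Usp18 to 0.47 (SE 0.56), Iigp1 to 0.09 (SE 0.34) and Rsad2 to 1.30 (SE 0.31), with Gbp6 and Bst2 turning to -0.01 and -0.11.

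Mx2 (chromosome 16, 97782327 to 97782386, build mm9 as for all probes), a GTPase that blocks virus replication, showed the largest difference. Its level at day 2 was 0.01 in vehicle, -0.07 in ATRA, 1.48 in DEN, 1.66 in ATRA+DEN, 1.04 in control siRNA and 1.16 in G0s2 siRNA. At day 7 it was 0.59, 0.63, 2.80, 1.96, 1.63 and 1.87 in the same order. Every array with DEN was above every array without siRNA or DEN, and the 4 siRNA arrays stood above the 4 arrays without DEN too. The DEN effect was 1.69 (SE 0.16, 3.22-fold, higher in 4 of 4 pairs, limma adjusted p = 0.131). With normexp it was 1.42 and passed, at a limma adjusted p of 0.0312.

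Xaf1 (chromosome 11, 72122169 to 72122228), which opposes an inhibitor of caspases, stood at day 2 at -0.73 in vehicle, -0.63 in ATRA, 0.59 in DEN, 0.06 in ATRA+DEN, 1.27 in control siRNA and 0.11 in G0s2 siRNA. At day 7 the levels were -0.84, -1.16, 0.69, 0.74, -0.99 and -0.29 in the same order. The 4 arrays with DEN were again above the 4 without. The difference was 1.36 (SE 0.33, 2.57-fold, 4 of 4 pairs, limma adjusted p = 0.267). A second Xaf1 probe, above background on 3 arrays, differed by 0.66 on average.

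Usp18 (chromosome 6, 121220874 to 121220933), which removes Isg15 from proteins and dampens the type I receptor, stood at -0.83 in vehicle, -1.43 in ATRA, 0.20 in DEN and -1.02 in ATRA+DEN at day 2. At day 7 these levels were -0.95, -0.53, 0.63 and 0.64. ATRA+DEN of day 2 was below vehicle of that day, so the groups overlapped, although DEN was higher within each pair, by 1.05 on average (SE 0.42, limma adjusted p = 0.398). Control siRNA gave Usp18 levels of 1.24 and then 0.19, G0s2 siRNA 0.07 and then 1.60.

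Ifit1 (chromosome 19, 34723796 to 34723855) binds viral RNA that lacks the host's cap methylation. Its levels were -1.46 in vehicle, -1.29 in ATRA, -0.13 in DEN and -0.98 in ATRA+DEN at day 2, and -2.61, -1.27, -1.03 and -0.65 at day 7. The groups did not overlap, with the lowest level in vehicle of day 7, and the DEN effect was 0.96 (SE 0.41, limma adjusted p = 0.421). Control siRNA gave 0.21 at day 2 and -1.33 at day 7, G0s2 siRNA -0.90 and -0.05.

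Oas1a (chromosome 5, 121346735 to 121346794) makes oligoadenylates that activate an RNA-cutting enzyme. Without siRNA it stood at 0.10 in vehicle, 0.16 in ATRA, 1.02 in DEN and 0.89 in ATRA+DEN at day 2, and at 1.19, 0.77, 1.26 and 1.69 at day 7. The DEN effect was 0.66 (SE 0.27, limma adjusted p = 0.408). Both siRNA arrays of day 2, at 3.32 and 2.28, were above all of these, while those of day 7 stood at 0.59 and 1.02.

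Isg15 (chromosome 4, 155573649 to 155573708), a ubiquitin-like protein that is joined to other proteins, stood at 3.20 in vehicle, 2.80 in ATRA, 3.61 in DEN and 3.28 in ATRA+DEN at day 2. At day 7 it stood at 3.41, 3.52, 4.14 and 4.34 in the same order. Differences with DEN were small and of one sign, 0.61 on average (SE 0.27, limma adjusted p = 0.425). A dimmer second probe gave 0.69, also higher in 4 of 4 pairs. With control siRNA it was 3.89 at day 2 and 2.89 at day 7, and with G0s2 siRNA 3.44 and 4.14.

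**Figure D2:**
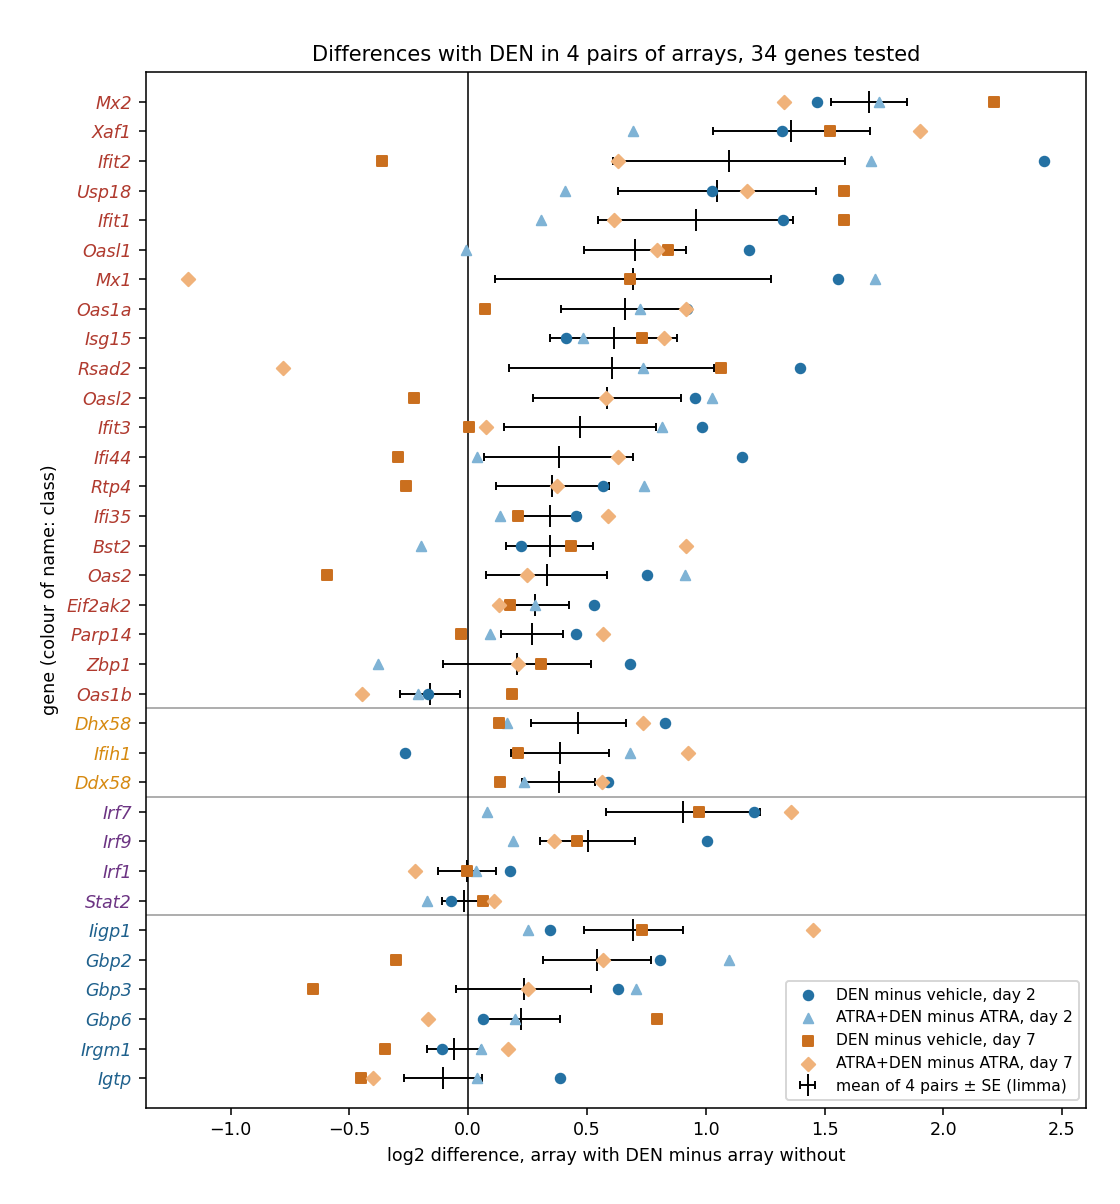
Log2 difference, array with DEN minus array without, in each of 4 pairs (symbols) for the 34 genes tested. The mean of the 4 pairs is in black, with its SE from the fit that also holds the siRNA pairs. Mx2 and Xaf1 lie to the right of 0 in every pair, at means of 1.69 and 1.36, while Irf1 and Stat2 lie on both sides of 0.

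The other antiviral effectors gave smaller or less even differences. Ifit2, a relative of Ifit1, had a mean level of -3.24 with DEN (3 of 4 arrays well above background) and -4.34 without (0 of 4). The size of this difference is therefore not known. The dim array with DEN, that of DEN at day 7, stood at -4.00, below vehicle of that day at -3.64. Bounds given elsewhere for single pairs take, for the dim array, the higher of its own signal and the lowest signal well above background. Mx1 was above background on 1 of 4 arrays on each side. It differed by 0.69 (SE 0.58), and by -0.04 with normexp correction. Oasl1, which limits Irf7 protein, differed by 0.70 (SE 0.22), at an unadjusted p of 0.017 and a limma adjusted p of 0.327, with ATRA+DEN and ATRA of day 2 nearly equal at 3.08 and 3.09. Ifi35 differed by 0.35 (SE 0.13) and Eif2ak2, the kinase that stops translation on double-stranded RNA, by 0.28 (SE 0.15), both higher in 4 of 4 pairs. Ifit3 did so too, by 0.47 (SE 0.32), with 0.00 and 0.07 at day 7. Rsad2, which makes a chain-terminating nucleotide, differed by 0.60 (SE 0.43), Oasl2 by 0.58 (SE 0.31), Ifi44 by 0.38 (SE 0.31), Rtp4 by 0.35 (SE 0.24) and Bst2, which tethers budding viruses, by 0.34 (SE 0.18). Oas2 differed by 0.33 (SE 0.26), Parp14 by 0.27 (SE 0.13) and the nucleic acid sensor Zbp1 by 0.20 (SE 0.31). Each of these 8 was higher in 3 of 4 pairs. The exception was DEN against vehicle of day 7 for Oasl2, Ifi44, Rtp4, Oas2 and Parp14. A second Zbp1 probe differed by 0.77 and was also higher in 3 of 4 pairs. Oas1b was the only antiviral effector lower on average, by -0.16 (SE 0.13), and was higher in 1 of 4 pairs. Oas1g and Oas3 were not well above background on any of these 8 arrays.

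The RNA sensors detect viral RNA in the cytosol. Dhx58 (chromosome 11, 100556271 to 100556330) stood at -0.21 in vehicle, -0.19 in ATRA, 0.61 in DEN and -0.03 in ATRA+DEN at day 2, and at 0.00, -0.06, 0.13 and 0.67 at day 7. Ddx58 (chromosome 4, 40151893 to 40151952) stood at 1.96, 1.74, 2.55 and 1.97 and at 2.41, 2.37, 2.55 and 2.93 in that order. Both were higher with DEN in each pair, by 0.46 (SE 0.20, limma adjusted p = 0.425) and 0.38 (SE 0.16, limma adjusted p = 0.406), but ATRA+DEN of day 2 lay among the arrays without DEN. The siRNA arrays of Dhx58 stood at 0.74 and 0.12 at day 2 and at -0.45 and -0.16 at day 7, control first. Those of Ddx58 stood at 2.57, 2.24, 2.25 and 2.64. Ifih1 differed by 0.39 (SE 0.21) and was lower with DEN in the DEN and vehicle pair of day 2.

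Among the transcription factors, Irf7 and Irf9, which are induced by the response they drive, were higher with DEN, whereas Irf1 and Stat2 differed by less than their SE. Irf7 (chromosome 7, 148450664 to 148451014), which amplifies type I interferon production, stood at -2.56 in vehicle, -1.38 in ATRA, -1.35 in DEN and -1.30 in ATRA+DEN at day 2. At day 7 it stood at -1.70, -1.45, -0.72 and -0.09. The groups did not overlap, narrowly at day 2, and the difference was 0.90 (SE 0.32, limma adjusted p = 0.37). All 4 siRNA arrays were higher than these 8, at 2.01 and 0.66 with control siRNA and 0.54 and 0.86 with G0s2 siRNA, day 2 first. Irf9 (chromosome 14, 56228806 to 56228865), the DNA-binding part of the type I complex, stood at 1.88, 2.02, 2.88 and 2.21 at day 2 and at 2.60, 2.70, 3.06 and 3.06 at day 7. Its siRNA arrays stood at 2.92 and 2.40 at day 2 and at 2.09 and 2.50 at day 7, control first. The difference with DEN was 0.50 (SE 0.20, limma adjusted p = 0.397). Irf1 differed by -0.00 (SE 0.12) and Stat2 by -0.02 (SE 0.09), each higher in 2 of 4 pairs.

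Of the GTPases only Iigp1, which attacks the vacuole of intracellular parasites, was higher with DEN in all 4 pairs. It stood at 3.27 in vehicle, 3.72 in ATRA, 3.61 in DEN and 3.98 in ATRA+DEN at day 2, and at 2.74, 2.26, 3.47 and 3.71 at day 7. Its siRNA arrays stood at 4.14 and 4.06 at day 2 and at 3.40 and 3.31 at day 7, control first. The groups overlapped, with ATRA above DEN at day 2, and the difference was 0.70 (SE 0.21, limma adjusted p = 0.321). A second Iigp1 probe gave 0.60, also in 4 of 4 pairs. The guanylate-binding proteins Gbp2, Gbp3 and Gbp6 differed by 0.54 (SE 0.23), 0.23 (SE 0.29) and 0.22 (SE 0.17), each higher in 3 pairs. A second Gbp6 probe differed by 1.13 and was higher in 4 pairs, so the 2 probes disagree in size. Irgm1 and Igtp differed by -0.06 (SE 0.11) and -0.11 (SE 0.16), and each was higher in 2 pairs.

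The pairs were not equal. DEN against vehicle at day 2 gave a median of 0.72 over the 34 genes (30 higher, 11 at least 2-fold higher, where 2.93% of all genes were). Among the 32 genes above background on all 12 arrays 9 were at least 2-fold higher, and with normexp 3 of 34. ATRA+DEN against ATRA at day 2 gave 0.27 (29 higher, 5 at least 2-fold, where 3.11% were), with 3 of those 32 genes at least 2-fold higher and 1 of 34 with normexp. The counts of 11 and 5 include Mx1 and Ifit2, which were not above background in the vehicle and ATRA arrays of day 2. Mx1 was not above background in DEN of day 2 either, so its difference from vehicle is not known. Ifit2 exceeded vehicle in DEN by a log2 difference of at least 0.23. In ATRA+DEN against ATRA the bounds were at least 0.36 for Mx1 and 0.59 for Ifit2. A 2-fold rise is therefore not established for either gene in these pairs. At day 7 DEN against vehicle gave 0.18 (23 higher, 5 at least 2-fold, where 7.02% were), and ATRA+DEN against ATRA gave 0.57 (28 higher, 5 at least 2-fold, where 4.04% were), each with 3 at least 2-fold higher under normexp. The antiviral medians in that order were 0.95, 0.48, 0.21 and 0.59, and the GTPase medians 0.37, 0.23, -0.33 and 0.21. Without the DEN and vehicle pair of day 2, in which vehicle was the lowest of 12 arrays for 15 of the 34 genes (44.1%, where 7.87% of all genes were lowest there), the mean DEN effect still had a median of 0.34 with 29 genes higher. By limma the difference between days passed 0.05 after adjustment for 0 of the 34 genes and 0% of all genes, and so did the difference with and without ATRA (0 of 34, 0%). Unadjusted p under 0.05 held for 4 genes between days, all with a negative interaction, where 653 of 21201 genes had one and 798 a positive one. They were Ifit3 (-0.86), Oas2 (-1.01), Igtp (-0.64) and Ifit2, which gets no value because it was not above background without DEN. It held for 2 genes with ATRA, Ifit1 (-0.99) and Ifih1 (0.83), where 335 of 21201 genes were lower and 442 higher.

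Other genes of the pathway were read from lists by role. Of 14 interferon genes on the array, 5 (Ifnb1, Ifna4, Ifna7, Ifne and Ifng) were not well above background on any array. On average 6 of the 8 tested were higher with DEN, by a median of 0.18. In DEN against vehicle 2 of the 8 were higher at day 2 (median -0.25) and 6 at day 7 (0.37). In ATRA+DEN against ATRA the counts were 6 (0.25) and 4 (-0.06). The summed level of the 14 was 0.9 to 2.1 with DEN and 1.0 to 1.7 without. The receptors and kinases gave 4 of 9 higher (median -0.07), and the inhibitors 3 of 6 (-0.06). Socs1, which blocks the receptor's kinases, was lower in all 4 pairs by -0.63 (SE 0.11, limma adjusted p = 0.231). Other type I target genes gave 24 of 36 higher (0.18), with Slfn8 at 1.07 (SE 0.36, above background on 9 arrays), Oas1f at 0.71 (SE 0.25) and Samd9l at 0.71 (SE 0.17). Other gamma target genes gave 18 of 33 higher (0.08), with the peptide transporter Tap1 at 0.94 (SE 0.12) and Nlrc5, which activates MHC class I genes, at 0.57 (SE 0.11). Socs1, also on that list, was lower as given above. Other transcription factors gave 4 of 7 higher (0.04) and sensing genes 4 of 9 (-0.02). None of these genes passed the adjusted threshold for DEN.

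Markers of other cells were read beside the DEN effect. T and NK cell markers gave 5 of 9 higher (median 0.00), with a summed level of 54.2 to 72.7 with DEN and 55.6 to 90.7 without. Kupffer cell and macrophage markers gave 3 of 12 higher (-0.05; 77.4 to 91.8 and 80.6 to 108.2). Plasmacytoid dendritic cell markers gave 1 of 3 higher (-0.04; 168.7 to 390.2 and 167.0 to 350.8), and neutrophil markers 2 of 5 (-0.26; 121.1 to 183.5 and 134.2 to 157.1). B cell markers gave 3 of 3 higher (0.76), at a summed level of 0.7 to 1.6 with DEN and 0.7 to 1.1 without. Endothelial markers gave 3 of 6 higher (-0.10; 55.0 to 118.5 and 81.1 to 142.6). Hepatocyte markers gave 0 of 8 higher (-0.27; 4935 to 6096 and 5458 to 8012). Ncr1, Klrb1c and Cxcr2 were not well above background on any array. The part of the B cell and hepatocyte markers in the DEN result was not tested, and in liver RNA fewer cells of a type and less RNA per cell cannot be told apart.

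ATRA did not move the 34 genes one way, and its 4 pairs differed. ATRA against vehicle gave 25 higher at day 2 (median 0.14), where 41.1% of all genes were. At day 7 it gave 16 (-0.05), where 49.7% were. ATRA+DEN against DEN gave 15 at day 2 (-0.10), where 50.5% were, and 28 at day 7 (0.36), where 53.2% were. Over 4 pairs the median was 0.06 with 19 higher, against -0.01 over all genes, and limma passed 0 of 34 and 0% of all genes. At an unadjusted p under 0.05 stood Zbp1 (0.55, higher in 3 of 4 pairs) and Stat2 (-0.35), 1 of 34 each way, where 679 of 21201 genes were higher and 541 lower. The GTPases were higher on average for 6 of 6, by a median of 0.11. Irf7 and Igtp were higher in all 4 pairs (by 0.53 and 0.27), 2 genes where 6.17% of all genes were. Stat2 was lower in all 4 (by -0.35), 1 gene where 7.8% were. These pairs use the same 8 arrays as the DEN pairs, and at day 7 each spans 2 slides.

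The control siRNA array of day 2 was the highest of 12 for 20 of the 34 (13 of 21 antiviral effectors and 5 of 6 GTPases), where 5.41% of all genes were highest there. Both siRNA arrays of day 2 were above the other 4 arrays of that day for 16 of the 34, where 15.8% of all genes were, and below them for 0. These 16 were Ifit2, Ifit3, Oas1a, Oas2, Oasl2, Ifi44, Zbp1, Bst2, Parp14, Ifih1, Irf7, Gbp2, Gbp3, Igtp, Iigp1 and Irgm1. Irf7 stood 3.66 above the mean of those 4 arrays with control siRNA and 2.19 above with G0s2 siRNA. Control siRNA exceeded vehicle by a median of 1.52 and DEN by 0.54, and G0s2 siRNA exceeded DEN by 0.16. At day 7 both siRNA arrays were above the other 4 for only 2 of the 34, where 18.3% of all genes were, and below them for 8 (23.5%), where 19.4% were. This ordering was looked at after the levels had been seen. At day 2 the siRNA arrays fill a slide of their own, and no array has the lipid carrier alone. The siRNA, its carrier, any DEN these mice drank and the slide therefore cannot be told apart.

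Other markers moved with the siRNA arrays. All 12 Kupffer cell and macrophage markers could be tested, and their summed level was 291.8 in control siRNA and 196.4 in G0s2 siRNA of day 2, against 77.4 to 85.9 in the other arrays of that day. At day 7 the sums were 112.2 and 68.5, against 83.5 to 108.2. Each of the 12 markers was lower with G0s2 siRNA than with control siRNA on both days (medians -0.49 at day 2 and -0.75 at day 7). Cdkn1a stood at 3.80 and 3.17 in the siRNA arrays of day 2, control first, near DEN (3.84) and ATRA+DEN (3.21) and above vehicle (0.97) and ATRA (1.95). At day 7 it stood at 5.33 and 6.61. The part of either in the levels of the interferon-induced genes was not tested.

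**Figure D3:**
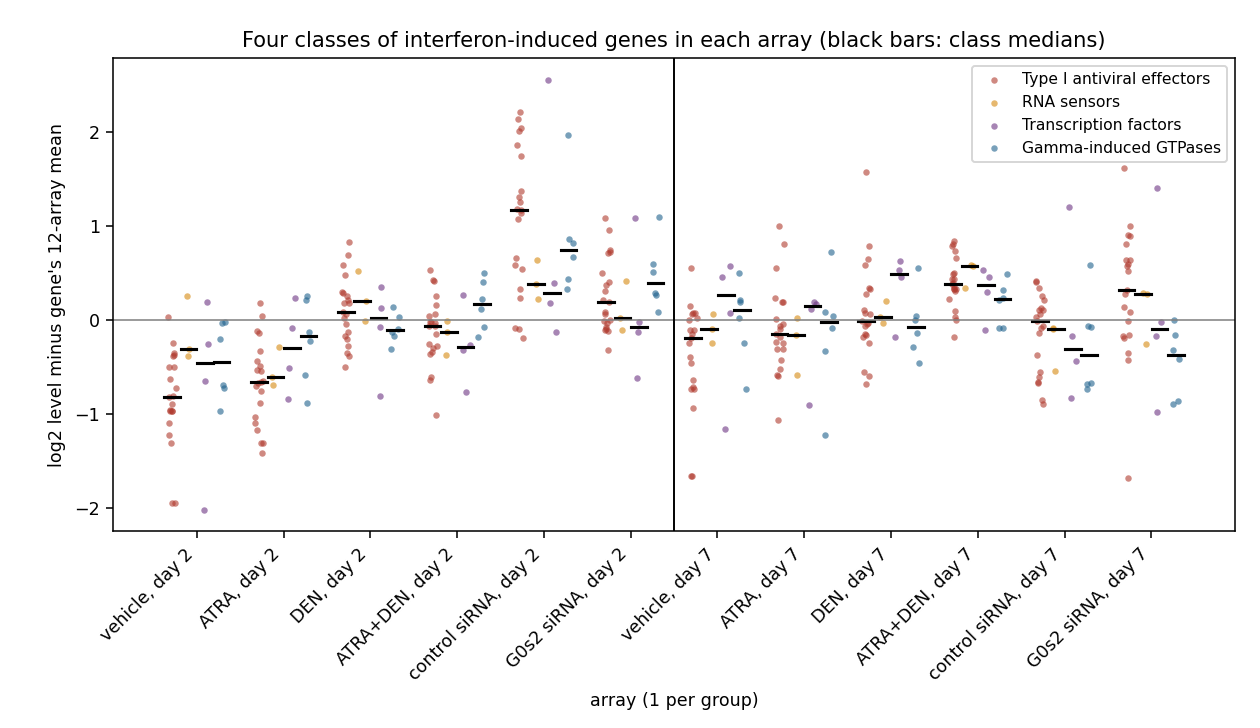
Log2 level minus the gene's 12-array mean for the 34 genes tested (points) in each array, coloured by class, with class medians as black bars. In the control siRNA array of day 2 the antiviral median is 1.17 and the GTPase median 0.74; in vehicle of day 2 they are -0.82 and -0.45.

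G0s2 siRNA against control siRNA gave antiviral medians of opposite sign on the 2 days. At day 2, 30 of the 34 genes were lower (median -0.57) and 12 were at least 2-fold lower, where 2.65% of all genes were (4 with normexp). Of all genes 58.8% were higher at day 2. At day 7, 24 of the 34 were higher (70.6%, median 0.24), where 59.2% of all genes were (median 0.09), and 20 of 34 with the percentile over probes above background on all arrays. Of the 34, 4 were at least 2-fold higher at day 7, where 4.51% of all genes were (2 with normexp). The 12 were Mx1, Ifit1, Ifit2, Rsad2, Oas1a, Oas2, Oasl2, Usp18, Ifi44, Rtp4, Xaf1 and Irf7, and the 4 were Ifit1, Isg15, Usp18 and Zbp1, so Ifit1 and Usp18 passed 2-fold in both directions. Averaged over days, second probes of Oas1a (-0.43) and Isg15 (0.20) had the sign of the probe used. Those of Xaf1 (2.71, above background on 3 arrays) and Zbp1 (-0.30, on all 12) had the opposite sign. Antiviral medians were -1.05 at day 2 and 0.38 at day 7. GTPase medians were -0.30 and -0.17, with 5 of 6 lower on both days. Averaged over days, limma passed 0 of 34 and 0% of all genes (lowest limma adjusted p among the 34, 0.689; Oas2 alone had an unadjusted p under 0.05). Higher on both days were 4 of the 34, where 37.8% of all genes were, and lower on both days 10, where 19.8% were. Leaving out day 2 turned the median of the average from -0.21 to 0.24, and leaving out day 7 gave -0.57.

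Oas2, Ifi44 and Rtp4 had the largest average differences among genes lower on both days. Oas2 (chromosome 5, 121180343 to 121180402), a second oligoadenylate synthetase, stood at 1.58 with control siRNA and 0.52 with G0s2 siRNA at day 2 and at -1.29 and -2.11 at day 7. Without siRNA it ranged from -1.39 in vehicle of day 2 to 0.12 in vehicle of day 7, with ATRA, DEN and ATRA+DEN at -1.09, -0.64 and -0.18 at day 2 and -0.25, -0.48 and 0.00 at day 7. The average siRNA difference was -0.94 (SE 0.36, limma adjusted p = 0.689). Ifi44 (chromosome 3, 151394035 to 151394094), an antiviral protein, stood at 0.08 and -1.40 at day 2 and at -2.06 and -2.13 at day 7, so its average of -0.78 (SE 0.44, limma adjusted p = 0.7) rests on day 2. Without siRNA it ranged from -3.09 in vehicle of day 2 to -1.73 in ATRA+DEN of day 7. Rtp4 (chromosome 16, 23613668 to 23613727), a receptor-transporting protein, stood at 3.35 and 2.14 at day 2 and at 2.09 and 2.01 at day 7 (average -0.64, SE 0.34, limma adjusted p = 0.689). Its levels without siRNA lay between 1.47 and 2.40. In all 3 genes the control siRNA array of day 2 was the highest of 12. Mx2, with the largest DEN effect, hardly differed between the siRNA arrays (0.12 and 0.24).

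**Figure D4:**
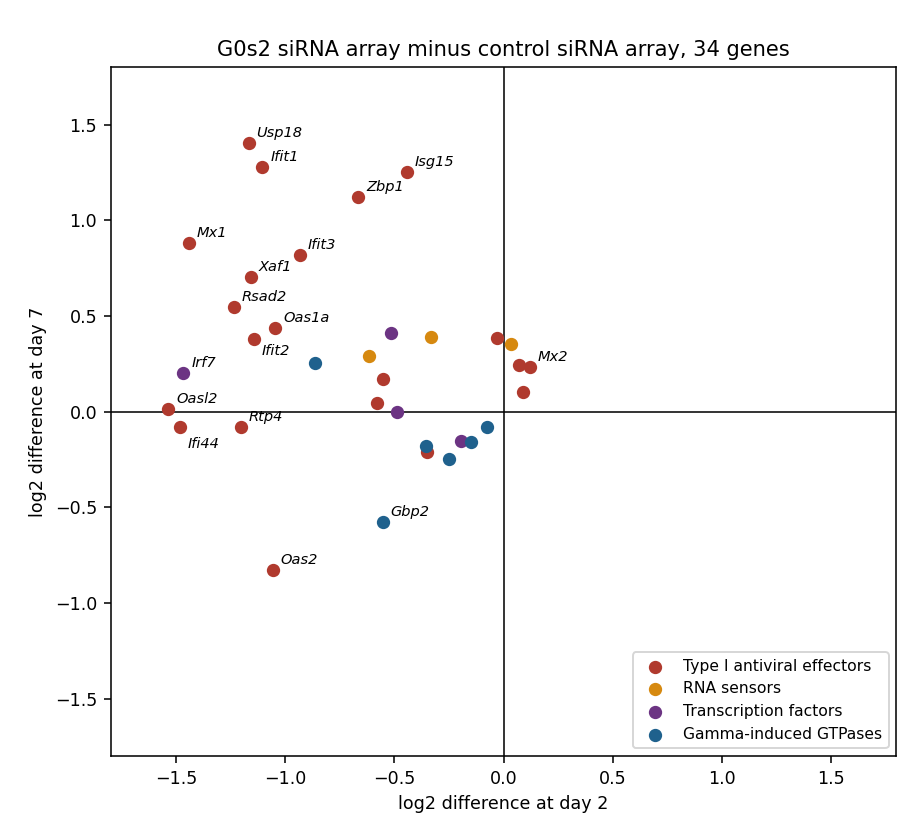
Log2 difference, G0s2 siRNA array minus control siRNA array, at day 2 (horizontal) and day 7 (vertical) for the 34 genes tested, coloured by class. Of the 21 antiviral genes 14 lie in the upper left, lower at day 2 and higher at day 7, while 5 of the 6 GTPases lie in the lower left.

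Between days, limma called 3 of the 34 genes over 6 pairs of arrays: 2 rose at day 7, where 24.5% of all genes were called higher, and 1 fell, where 21.3% were called lower. Mx2 rose by 0.70 (SE 0.14, limma adjusted p = 0.00691) and Ifi35, which binds other interferon-induced proteins, by 0.54 (SE 0.11, limma adjusted p = 0.00811), each higher in 6 of 6 pairs. Iigp1 fell by 0.65 (SE 0.18, limma adjusted p = 0.0225; lower in 6 of 6). Without the control siRNA arrays Iigp1 no longer passed (limma adjusted p = 0.0557), while Isg15 (0.64, limma adjusted p = 0.0188) and Irf9 (0.51, limma adjusted p = 0.0447) did. Without the G0s2 siRNA arrays Iigp1 also missed (limma adjusted p = 0.0565), and without the DEN arrays Gbp6 passed (-0.63, limma adjusted p = 0.0475). The 34 genes had a median day effect of 0.01, and the medians differed between treatments. Vehicle, ATRA, DEN and ATRA+DEN gave medians of 0.48, 0.40, 0.11 and 0.41, with 27, 27, 18 and 27 genes higher at day 7, where 53.2%, 56%, 54.7% and 55% of all genes were. Over the alternatives these medians ran from 0.28 to 0.67, 0.15 to 0.56, -0.06 to 0.25 and 0.15 to 0.54. That of DEN thus had no settled sign. The medians of all genes moved as well, from -0.14 to 0.27, -0.14 to 0.25, -0.09 to 0.29 and -0.16 to 0.24. These ranges therefore include shifts of whole arrays. The upper ends for the 34 genes came from the series table, which is equalised only within each day. Control siRNA gave -1.02, with 32 of 34 lower (-1.22 to -0.80 over the alternatives), and G0s2 siRNA -0.19, with 19 lower. Beside this, Kupffer cell and macrophage markers were lower at day 7 for 11 of 12 with either siRNA (medians -1.20 and -1.53, control first), and T and NK cell markers for 7 and 8 of 9 (medians -1.25 and -1.59). Their part in the result was not tested. Day, slide and scan cannot be told apart in these pairs.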

How the data were processed

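Total RNA of mouse liver, 12 samples, was labelled with Cy3 and hybridised to Agilent 1-colour arrays. The deposited intensities are processed signals from Agilent Feature Extraction, version 10.7.1.1 per the file headers and 9.5.1.1 per the submitters' processing notes, which subtract background; probe positions are mm9 per the file headers. From these, log2 intensity minus each array's 75th percentile over non-control spots was computed, leaving out outlier-flagged spots and averaging the spots of a probe. The deposited series table holds intensities of the same arrays (correlation with its own array at least 0.9994), equalised within each day, and served as an alternative.

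Each gene was read from its brightest probe, and 21201 genes were tested with limma 3.58.1 in R 4.3.3, with the pair of arrays as a block and Benjamini-Hochberg adjustment over all genes (threshold 0.05). The DEN and G0s2 siRNA effects came from 1 fit of 12 arrays, and the ATRA effect and interactions from the 8 arrays without siRNA. The fits were checked on simulated data. The number of arrays, 1 per group, limits the precision. The genes and lists were chosen with earlier results of these data known. Full levels were given for genes with the largest DEN or siRNA difference of 1 sign in every pair: per class up to 6 effectors, 2 sensors, 2 factors and 3 GTPases, and up to 3 for the siRNA. Alternatives were quantile normalization, normexp background correction (offset 50), another percentile, other filters on dim probes, the mean of a gene's probes, the series table, the second day-7 label, slide as a block and each pair left out. Coordinates of promoters are GRCm38.p6 and were not mixed with mm9. Some genes are not reported here.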

Additional observations from a re-analysis of the deposited data

Results flagged for a closer look

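The G0s2 siRNA minus control siRNA difference had opposite signs on the 2 days, with 1 array per group and day, so this difference between days was not tested. Over the 34 interferon-induced genes the median moved from -0.57 at day 2 to 0.24 at day 7, that is by 0.81. For the antiviral effectors it moved from -1.05 to 0.38, by 1.42, for the RNA sensors from -0.33 to 0.35, by 0.69, and for the transcription factors from -0.50 to 0.10, by 0.60. The GTPase medians, -0.30 and -0.17, had the same sign.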

How the results depend on the processing

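Counts of all genes passing limma's adjusted threshold were 0 for DEN, G0s2 siRNA and the DEN by day interaction, and 9, 4 and 1 with normexp background correction; the cause was not tested. With normexp, 17 member differences between single arrays reached 2-fold in the 10 DEN, ATRA and siRNA pairs, against 50. Its offset of 50 shrinks log2 differences of dim probes by construction, and the median intensity of an array was 13.1 to 18.2. The antiviral minus GTPase median for DEN, 0.36, was 0.19 with normexp and 0.20 with the mean of all probes, and 0.20 to 0.34 with 1 pair left out. With 1 siRNA pair left out, limma called 0 to 1 genes for G0s2 siRNA. The stricter ISRE left 7 of 16 promoters. Over all alternatives the median DEN effect stayed between 0.32 and 0.57. The G0s2 siRNA median lay between -0.62 and -0.53 at day 2 and between 0.13 and 0.25 at day 7 under the alternatives run on levels, and the median of all genes between 0.01 and 0.17 and between -0.02 and 0.25. The median day effect of the members turned from 0.01 to -0.21 with the percentile over probes above background on all arrays. That percentile also gave negative medians of all genes between days, from -0.20 with G0s2 siRNA to -0.09 with DEN. Replicate numbers could not serve as a block, since each group has 1 array; the pairs that all fits use are arrays that differ in 1 factor. Probes near background limit Mx1, Ifit2, Oas1g and Oas3.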
